A study of Mus musculus with 6 samples.

Results

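The 10 genes described here encode the AMPA receptor and the proteins that travel with it. They are the pore-forming subunits Gria1, Gria2, Gria3 and Gria4, the transmembrane regulatory proteins (TARPs) Cacng2, Cacng3 and Cacng8, the cornichons Cnih2 and Cnih3, and the single-pass subunit Shisa6. They were taken by symbol from the feature lists of 6 spatial transcriptomes of the mouse brain, and all 10 were found among the 19465 genes counted. Each library came from 1 coronal section (5 µm, formalin-fixed and paraffin-embedded) of 1 untreated male C57BL/6J mouse, with 2 sections at postnatal day 21 (P21), 2 from adults of 12 to 15 weeks and 2 from aged mice of 28 months. The P21 and adult sections were captured directly on Visium v1 slides. The aged sections were transferred with the CytAssist instrument to Visium v2 slides, with a changed probe design, so that in every level set between aged and adult sections the slide version goes with age, and their parts cannot be told apart. The questions were where in the section each gene is expressed, and whether its level in each anatomical zone differed between P21 and adult, or between aged and adult.

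AMPA receptors are tetramers that carry most of the fast excitatory current at central synapses. Glutamate opens the pore, and the subunits in the tetramer set how fast the current ends and whether calcium passes. Auxiliary proteins bind the receptor in the endoplasmic reticulum or at the surface: TARPs and cornichons slow its closing and bring it to the synapse, and Shisa6 keeps it responsive during repeated release. In the hippocampus these receptors are known for their part in long-term potentiation.

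The pore is where the 4 subunits differ most for calcium. The stretch below covers the re-entrant loop that lines it, from the mouse reference genome (GRCm38, with GENCODE vM21 coding exons), and it is shown because the codon in capitals is the Q/R site. In Gria2 the adenosine in this codon is edited in RNA, so that the receptor reads arginine in place of glutamine there and calcium is kept out. All 4 genomic sequences carry a glutamine codon, CAG in Gria1, Gria2 and Gria3 and CAA in Gria4. Over these 51 bases, identity to Gria2 was 92.2% for Gria3, 88.2% for Gria4 and 80.4% for Gria1. Probe counts do not read editing, so the values that follow are amounts of transcript only.
Gria1 (chr11:57243064-57243114, plus strand, exon 11, codon 600): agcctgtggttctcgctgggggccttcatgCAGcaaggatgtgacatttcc
Gria2 (chr3:80706893-80706943, minus strand, exon 11, codon 607): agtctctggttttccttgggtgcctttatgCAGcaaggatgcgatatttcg
Gria3 (chrX:41610235-41610285, plus strand, exon 11, codon 612): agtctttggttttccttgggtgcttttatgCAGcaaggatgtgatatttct
Gria4 (chr9:4464119-4464169, minus strand, exon 12, codon 608): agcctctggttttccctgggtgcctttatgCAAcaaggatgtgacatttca

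The sections held 2917 to 3679 spots after filtering, with 42422997 to 106783660 unique molecular identifiers (UMIs, counted probe molecules) in all and a median of 12074.5 to 25535 per spot. Spots were grouped by panels of marker genes into fiber tracts (FT), striatum (STR), hypothalamus (HY), thalamus (TH), cortex (CTX) and hippocampus (HP), with the AMPA genes and related lists kept out of the clustering. HP was divided into CA1-2, CA3, dentate gyrus (DG) and the neuropil around them (matrix), and CTX into upper layers, deep layers and a piriform and amygdalar area. A region held 141 to 1163 spots per section, but CA1-2 only 25 to 35, CA3 29 to 84 and DG 37 to 54. Levels are CPM, counts per 1000000 of a zone's summed UMIs, scaled by TMM factors. A spot covers several cells, so fewer cells of a type and less RNA per cell cannot be told apart. Probe sets of different genes need not count alike, so levels are compared between zones and ages and not between genes. The aged sections were more sharply localized than the rest for 5 of 6 marker panels. Averaged over each region's marker panel, the level outside the home region was 11.8% of that inside for HP in aged sections, against 17.1% in adult and 20.7% in P21 sections, and for FT 15.0% against 23.3% and 23.6%. The HY panel was the exception, with 6.83% and 21.9% in aged sections and 14.4% to 28.5% in the others. Its part in the results below was not tested.

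Among the pore-forming subunits, Gria1 and Gria2 peaked in HP, Gria3 in CTX and Gria4 in TH, at every age. Gria1, the subunit whose synaptic insertion accompanies potentiation, had HP levels of 883 and 964 CPM at P21, 1202 and 1336 in adult and 1423 and 1664 in aged sections. The next region, STR, held 527 to 701 CPM over the 6 sections, without overlap with HP. FT and TH lay at the bottom, between 143 and 346 CPM, and their order changed between sections. Gria2, which makes the channel impermeable to calcium once edited, was 542 and 573 CPM in HP at P21, 754 and 779 in adult and 714 and 839.8 in aged sections. CTX followed at 519 to 597 CPM, and HP exceeded CTX within each of the 6 sections even though the ranges overlap across ages. For Gria3, CTX led with 328 to 371 CPM in all 6 sections, followed by HP (235 to 299 CPM), STR (232 to 296) and TH (188 to 253). STR lay above HP at P21 and below it in adult and aged sections, and TH above STR in both aged sections.

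Gria4, a subunit with fast kinetics, ran the other way. TH held 174 and 164 CPM at P21, 170.4 and 200.3 in adult and 164 and 167 in aged sections, and HP held the least, from 44.2 CPM in an aged section to 87.4 in a P21 section. No HP value reached any TH value. The maps of spots show the same: Gria1 outlines the hippocampal cell layers, while Gria4 is spread over CTX, TH and HY and thin in HP.

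**Figure D1:**
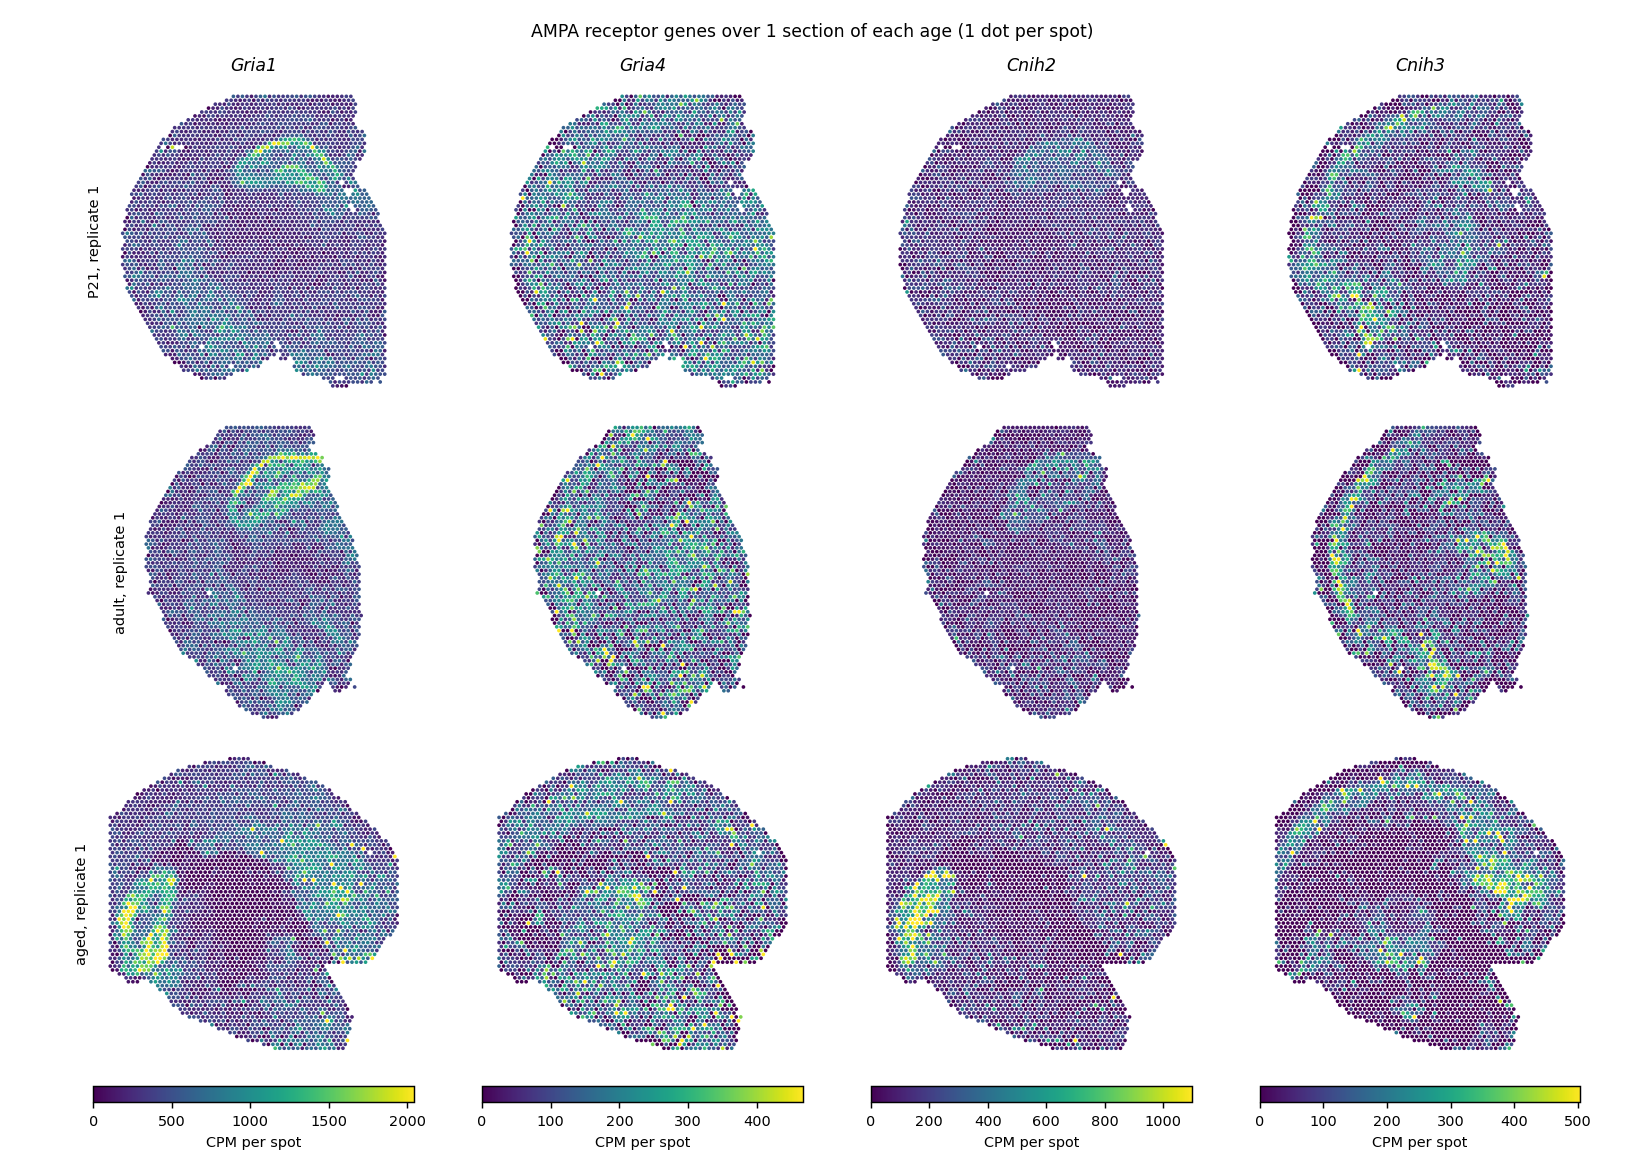
Level of Gria1, Gria4, Cnih2 and Cnih3 (columns) over replicate 1 of P21, adult and aged sections (rows); each dot is 1 spot at its place on the slide, and colour gives CPM per spot on a linear scale that ends at the highest of the 3 sections' 99th percentiles, with brighter spots drawn at the end colour. Sections keep their orientation on the slide, and the aged hippocampus lies at the left edge; Gria1 and Cnih2 are brightest in the hippocampus, while Cnih3 is bright in the dentate gyrus, the upper cortical layers and the piriform area.

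The auxiliary genes divided along similar lines. Among the TARPs, Cacng8 (TARP gamma-8) was the hippocampal gene: HP held 411 and 413 CPM at P21, 519.6 and 538 in adult and 716 and 734 in aged sections, and CTX 202 to 230.2 CPM. Its order HP, CTX, STR, HY, FT, TH was the same in each of the 6 sections, the only member of the 10 for which that held over all 5 steps. Cacng3 (gamma-3) led in CTX with 232 to 329 CPM, and then in STR with 211 to 258. Cacng2 (gamma-2, or stargazin, the first TARP described) varied least: TH held 78.9 to 101 CPM and CTX 57.4 to 88.2, and the ratio of the highest to the lowest region was 1.46 at P21, 1.86 in adult and 2.22 in aged sections.

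The 2 cornichons differed in place. Cnih2 was highest in HP, with 266 and 257 CPM at P21, 260.1 and 285 in adult and 586 and 447 in aged sections, against 103 to 167 CPM in CTX. Cnih3 was highest in CTX, with 129 to 148 CPM, above TH in 5 of 6 sections. Shisa6 was highest in HP, with 179 and 162 CPM at P21, 235 and 246 in adult and 407 and 356 in aged sections. TH held 109 to 159.7 CPM of Shisa6 and no other region more than 44.3 CPM. Over the 10 members and 6 regions, 27 of 50 pairs of neighbours in rank kept their order in all 6 sections; of all 100 such pairs, those within HP and CTX included, 59 did. With 6 sections an exact two-sided sign-flip permutation test cannot go below p = 0.03125. The Benjamini-Hochberg adjusted p over the 100 pairs was 0.0530 for each of those 59, so no pair passed 0.05. The ranks were taken from the mean over the same 6 sections, so the order and its test share their data.

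**Figure D2:**
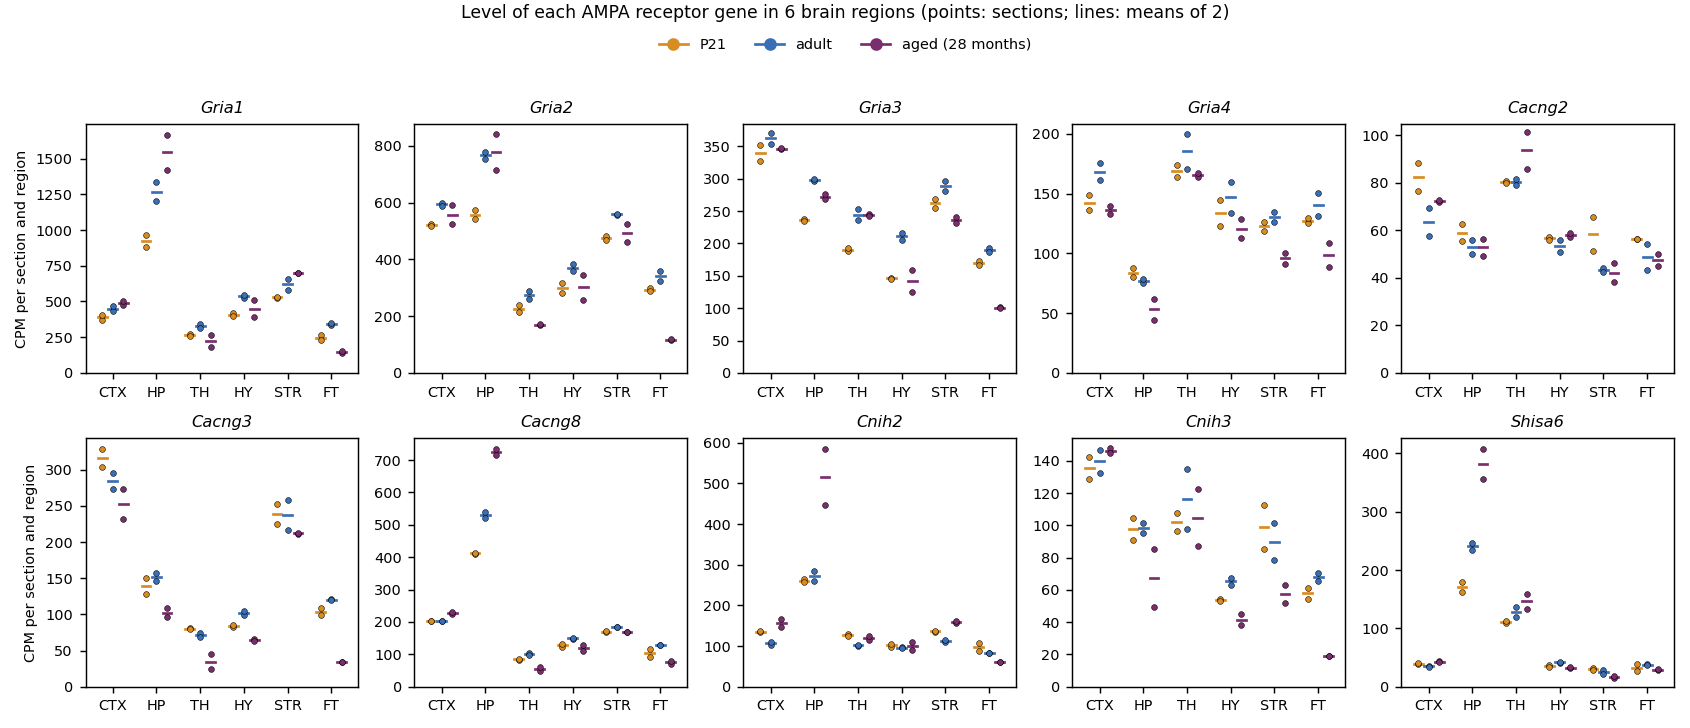
Level of each member (panel) in CPM in 6 regions; points are the 2 sections of P21 (orange), adult (blue) and aged (purple) mice, and lines are their means. Gria1, Gria2, Cacng8, Cnih2 and Shisa6 peak in HP, Gria3, Cacng3 and Cnih3 in CTX, and Gria4 in TH; Cacng2 is level within a factor of 2.22.

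Within HP the members took different fields. Gria1 followed the order CA1-2, DG, CA3, matrix in all 6 sections, with 1676 to 2375 CPM in CA1-2 and 557 to 916 in matrix. Cacng8 fell off from CA1-2 (844 to 1159 CPM) through CA3 and DG to matrix (242 to 447 CPM), again in every section. Shisa6 was highest in CA3 and CA1-2 and lowest in matrix. Gria4 was highest in the matrix, at 65.4 to 115 CPM, above CA3 in all 6 sections. Cnih3 was concentrated in DG, where its 6 values lay between 178 and 225 CPM, against 13.3 to 42.8 CPM in CA3. In CTX, Gria1, Gria3, Cacng8 and Cnih2 were highest in the piriform and amygdalar area in all 6 sections, and Gria4 in the upper layers.

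Ratios of 2 members' UMIs within a zone are free of the scaling between sections, and a bias of the probe sets cancels when a ratio is compared between zones. The log2 ratio of Gria1 to Gria2 was higher in HP than in CTX by 1.15 ± 0.09 (SD, n = 6 sections), in every section, and that of Gria4 to Gria2 was higher in TH than in CTX by 1.56 ± 0.36, also in all 6. For the TARPs, log2 Cacng3 to Cacng8 was 0.42 ± 0.25 in CTX and -2.07 ± 0.61 in HP, a difference of -2.49 ± 0.40. For the cornichons, log2 Cnih3 to Cnih2 in CA1-2 averaged -2.60 at P21, -2.59 in adult and -5.04 in aged sections. In DG it was -0.28, -0.01 and -0.70. Its mean was lower in aged than in adult sections in every zone, with -1.91 and -3.81 (adult, aged) in matrix and -3.40 and -5.37 in CA3. The probe design changed with the aged sections, so a probe bias need not cancel between adult and aged ratios. The Cnih3 sums in the aged CA1-2 were 16 and 33 UMIs. Of 30 ratios by region, 25 lay on the same side of CTX in all 6 sections.

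For each pore-forming subunit, the 3 genes with the most similar pattern were found by Pearson's r of log2(CPM + 1) over 54 points, the 6 sections by 9 zones with each section's mean removed, among 10165 genes; points of a section share a library, and r is given as a description. Gria1 was most like Sptb (r = 0.972), Scn3b (0.966) and St6galnac5 (0.952). Those of Gria2 included Chst1 (0.973) and Pip5k1a (0.964). Gria3 was most like Calm2 (0.942), a calmodulin gene, Fbxw7 (0.925) and Nptn (0.920). Gria4 was most like Dpp10 (0.941), whose product binds Kv4 potassium channels, Rcan2 (0.914) and Timp2 (0.914). Among the members themselves, r with Gria1 was 0.945 for Cacng8, 0.934 for Gria2, 0.880 for Cnih2, 0.72 for Shisa6 and -0.87 for Gria4.

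At P21 the hippocampus held less of Gria1, Gria2, Gria3, Cacng8 and Shisa6 than in adults. In HP, these 5 of the 10 members passed the test (edgeR quasi-likelihood, adjusted p under 0.05 over all genes) in the lower direction and none in the higher, where 5.92% of all genes tested were lower and 8.19% higher; the median log2 fold change was -0.22 over the members and -0.02 over all genes. Gria1 was lower than in adult (log2 fold change -0.44 ± 0.10 SE, adjusted p = 0.0102), and so were Gria2 (-0.44, adjusted p = 0.00835) and Gria3 (-0.32, adjusted p = 0.0240). For Gria1 and Gria2 the P21 and adult sections did not overlap in HP, and Gria3 ran from 235 and 237 CPM at P21 to 296 and 299 in adult sections. Cacng8 (-0.34, adjusted p = 0.0163) and Shisa6 (-0.47, adjusted p = 0.00694) were lower as well, while Gria4, Cacng2, Cacng3 and both cornichons did not pass. The HP calls of Gria2, Gria3, Cacng8 and Shisa6 were lost without either P21 or either adult section. Those of Gria3 and Cacng8 were also lost in interior spots. The HP call of Gria1 was lost without adult replicate 2 or either P21 section. Fold changes were modest: the largest, Shisa6, was 0.720 times the adult level. Matrix held 4897497 of 10236994 and 2044530 of 4325782 HP UMIs at P21. In adult sections it held 2308435 of 6154647 and 2423070 of 6988965. The part of this share in the HP results was not tested.

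More members passed in the P21 dentate gyrus than in any other zone. There 6 of 10 members passed lower (5.87% of all genes) and none higher (7.44%), with a median of -0.36 against 0.00 over all genes, and 2 of them differed by more than 1.5-fold, as 0.604% to 4.1% of all genes did in that direction over the 13 zones. Shisa6 had 174 and 145 CPM in the P21 DG and 269 and 265 in the adult, a log2 fold change of -0.70 ± 0.12 SE (adjusted p = 0.00100). Cacng3 had 93.5 and 119 CPM against 147 and 173 (-0.59, adjusted p = 0.0154). Gria2 stood at 694 and 725 CPM against 1034 and 1013 (-0.50, adjusted p = 0.0122), and Gria1 (-0.36), Gria3 (-0.44) and Cacng8 (-0.37) were lower too. In CA3 only Gria2 passed (-0.40, adjusted p = 0.0102), where 1.58% of all genes were lower and 3.41% higher, in matrix only Gria1 (-0.45, adjusted p = 0.0129), where 4.44% were lower and 5% higher, and in CA1-2 none of the members did, where 1.97% of all genes were higher and 0.86% lower. CA1-2 sums rest on 25 to 35 spots per section. In simulated data the same test passed 17% of genes changed 1.5-fold there, against 89% in CTX. The changed genes were drawn at random from those tested. The share was not simulated for the members, of which Gria1 held 917 to 3864 UMIs per section in CA1-2.

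Elsewhere at P21 the members moved in both directions. In CTX, Cacng2 was higher, at 88.2 and 76.3 CPM against 69.3 and 57.4 (0.38, adjusted p = 0.0210), and so was Cnih2 (0.34, adjusted p = 0.0134); 2 of 10 passed higher and none lower, where 9.54% and 9.77% of all genes did. The CTX call of Cacng2 was lost in interior spots (0.35). By area, Cacng2 passed in the upper layers (0.55, adjusted p = 0.00575). It also passed in the piriform and amygdalar area (0.54, adjusted p = 0.00447, where 5.89% of all genes were higher and 4.68% lower). In the deep layers Cacng2 did not pass (0.15), and no test compared the cortical areas. Cnih2 was the only member to pass in the deep layers (0.39, adjusted p = 0.00758, where 8.53% of all genes were higher and 7.38% lower). In the upper layers Shisa6 (0.56, adjusted p = 0.0136) and Cacng3 (0.37, adjusted p = 0.0325) were also higher, and Gria4 lower (-0.34, adjusted p = 0.0248), so that 3 members passed higher and 1 lower (6.72% and 5.43% of all genes). Gria3 was lower in TH (-0.35, adjusted p = 0.00955) and HY (-0.51, adjusted p = 0.0307), where it had 147 and 145 CPM at P21 and 216 and 206 in adult sections. In TH, Cnih2 alone was higher (0.33; 9.22% of all genes higher, 9.05% lower), in HY Gria3 was the only member to pass (3% higher, 3.65% lower), and in STR none of the 10 passed (4.49% higher, 2.6% lower). Gria1 was lower in FT (-0.48 ± 0.09 SE, adjusted p = 0.00104), where 3 of 10 members passed lower and none higher, against 14.2% and 10.9% of all genes. The other FT calls, Gria2 (-0.25) and Cacng3 (-0.24), each held in 4 of 16 alternative settings. Both were lost without either P21 or either adult section.

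Mature oligodendrocyte genes were mostly higher at P21: of 130 tests of 10 such genes in 13 zones, 113 passed higher and 4 lower. The summed level of these genes in HP was 18927 and 17278 CPM at P21 against 7159.9 and 6471 in adult sections. Their part in the results, through the share of UMIs they take, was not tested. The P21 differences also rest on few sections. The 13 zones overlap, since HP and CTX hold their own areas. By zone, 0.86% to 14.2% of all genes passed lower at P21 and 1.97% to 10.9% higher. Over the 13 zones, 19 tests of members passed lower and 8 higher; without P21 replicate 1 these became 4 and 0, without P21 replicate 2 4 and 4, without adult replicate 1 5 and 3, and without adult replicate 2 2 and 2, while without aged replicate 1 or 2 the lower count was 33. Of the 27 passed tests, 2 passed under each alternative run, Gria1 in FT and Shisa6 in DG, and none of the 27 changed direction.

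**Figure D3:**
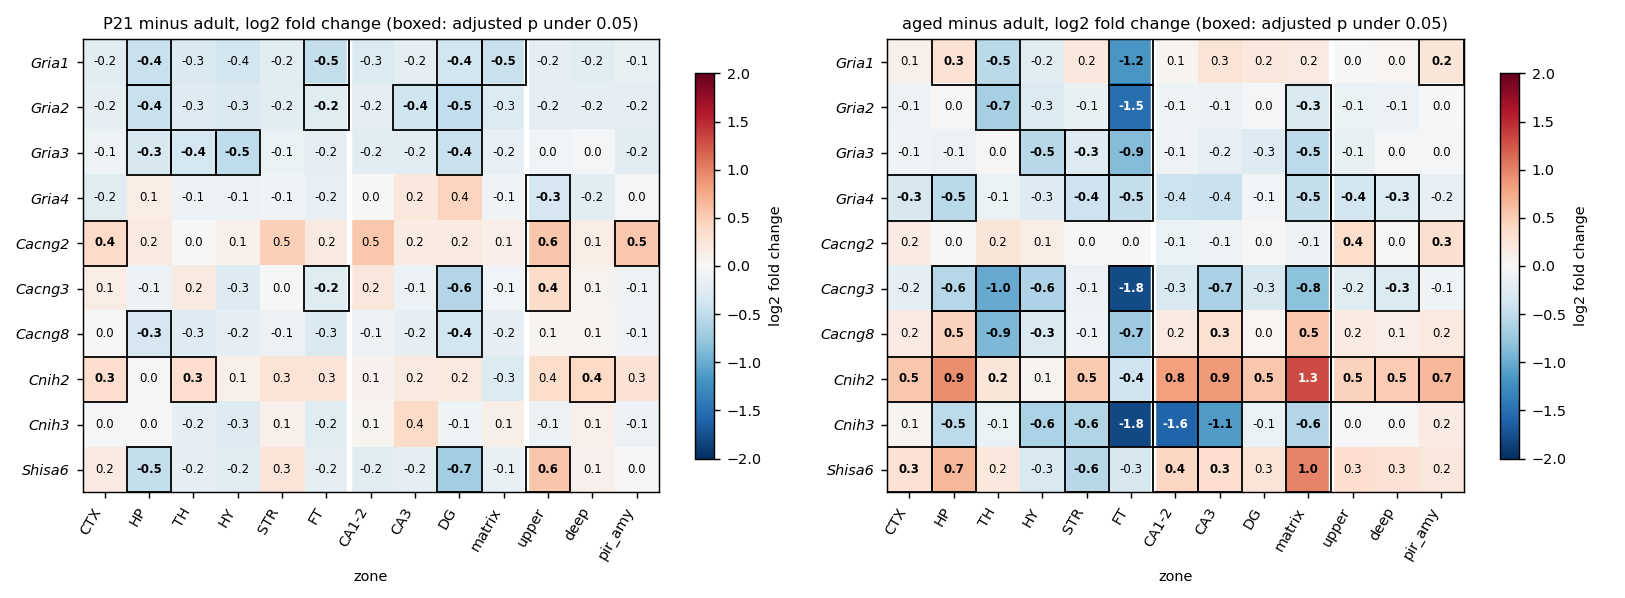
Log2 fold change of each member (rows) against adult in 6 regions, 4 hippocampal areas and 3 cortical areas (columns; pir_amy is the piriform and amygdalar area), for P21 at the left and aged sections at the right, on a colour scale from -2 to 2; boxed cells with bold print passed at an adjusted p under 0.05 (edgeR). The P21 cells lie between -0.70 and 0.56, and in the aged panel Cnih2 and Shisa6 rise in the hippocampus while 8 of the 10 FT cells are boxed, all on the blue side.

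Whether the P21 difference varied between regions was tested by a zone-by-age interaction over 36 sums in which each section had its own term, so that any shift of a gene shared by all zones of a section drops out. Gria3 (adjusted p = 0.0263) and Shisa6 (adjusted p = 0.0314) passed, 2 of 10 members where 11.7% of all genes did. The Shisa6 difference was lower in HP than in CTX (-0.65 on the log2 scale), and that of Gria3 was lowest in HY (-0.42 against CTX). Both calls were lost without either P21 or either adult section, when the count was 0, and without either aged section it was 5. In the same test over the 4 hippocampal areas, added after the data were seen, Cacng3 (adjusted p = 0.0263) and Shisa6 (adjusted p = 0.0306) passed, where 5.44% of all genes did. Relative to CA1-2, their difference in DG was -0.83 and -0.50.

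In aged sections Cnih2 and Shisa6 rose in the hippocampus. For Cnih2, HP went from 260.1 and 285 CPM in adult to 586 and 447 in aged sections (0.93 ± 0.12 SE, adjusted p = 0.000173), a ratio of 1.90. The gain was found in all 4 hippocampal areas and was largest in matrix, with 261 and 285 CPM against 698 and 625 (1.30 ± 0.11 SE, adjusted p = 3.86e-08). It was 0.86 in CA3 (adjusted p = 1.83e-07), 0.81 in CA1-2 (adjusted p = 3.35e-05) and 0.54 in DG (adjusted p = 0.0125). No aged value of Cnih2 overlapped an adult one in any of these areas. Shisa6 rose in HP to 407 and 356 CPM from 235 and 246 (0.67 ± 0.10 SE, adjusted p = 0.000417), and again most in matrix, from 112 and 108 to 226 and 205 CPM (0.99, adjusted p = 3.08e-06). Its gain was smaller in CA1-2 (0.41, adjusted p = 0.0206) and CA3 (0.34, adjusted p = 0.0166), and did not pass in DG. The Cnih2 call in DG was lost without either adult section (0.37 to 0.70 over the alternatives), and the Shisa6 calls in CA1-2 (0.32 to 0.53) and CA3 (0.26 to 0.41) without either adult section or aged replicate 1.

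Cacng8 rose in HP as well (0.46, adjusted p = 0.00168), with 716 and 734 CPM against 519.6 and 538, and in matrix (0.54, adjusted p = 0.00123), there not among interior spots. Gria1 was higher in HP by 0.29 (adjusted p = 0.0420), a call lost in 9 of 16 alternative settings, those without either adult section included (0.17 to 0.40 over the alternatives), and Gria2 did not pass there, with 714 and 839.8 CPM against 754 and 779. In total 4 of 10 members passed higher in HP and 3 lower, where 15.2% and 15% of all genes did. The 3 that fell were Cacng3, from 146 and 158 to 96.1 and 108 CPM (-0.57, adjusted p = 0.00201), Gria4, from 75.2 and 78.4 to 62.2 and 44.2 CPM (-0.54, adjusted p = 0.0122), and Cnih3 (-0.52, adjusted p = 0.0455). The Gria4 call was lost without either adult section (-0.79 to -0.30 over the alternatives), and that of Cnih3 without aged replicate 1, either adult or either P21 section (-0.98 to -0.19). Gria1 did not pass in any of the hippocampal areas. Matrix held 1595822 of 7978165 and 1678380 of 10489334 HP UMIs in aged sections. In adult sections it held 2308435 of 6154647 and 2423070 of 6988965. The part of this share in the HP results was not tested.

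**Figure D4:**
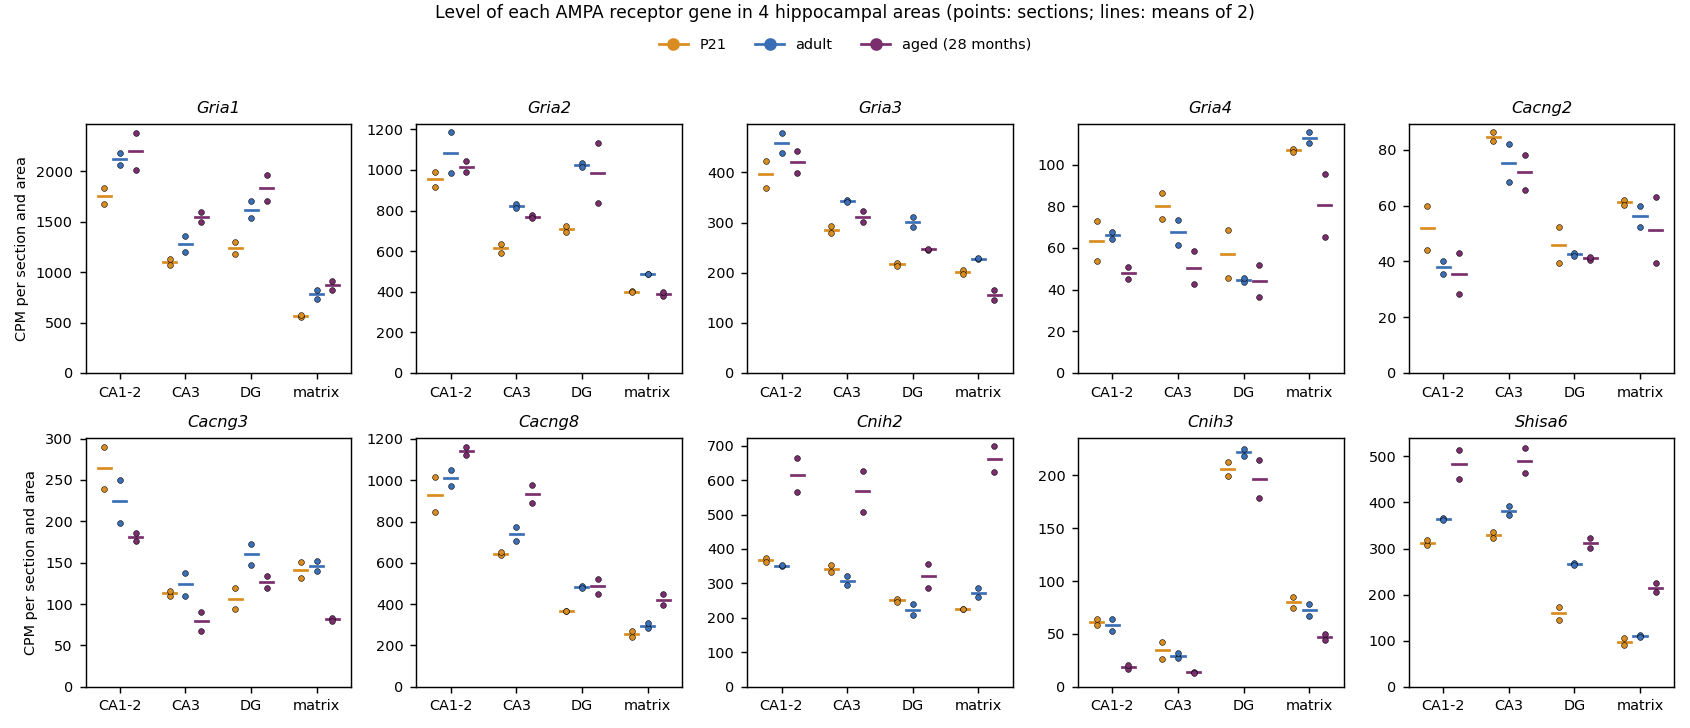
Level of each member (panel) in CPM in CA1-2, CA3, DG and matrix of the hippocampus; points are the 2 sections of P21 (orange), adult (blue) and aged (purple) mice, and lines are their means. Cnih2 and Shisa6 of aged sections lie above adult in CA1-2, CA3 and matrix. Cnih3 of aged sections lies below adult in CA1-2, CA3 and matrix and, by a smaller gap, in DG. The Shisa6 points of P21 lie below adult in DG.

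In aged sections the cornichons moved apart in the pyramidal fields, in matrix (Cnih2 1.30, Cnih3 -0.59) and in STR (0.52 and -0.61). In CA1-2, Cnih3 fell from 64.4 and 52.6 CPM in adult to 17.2 and 20.3 in aged sections (-1.60 ± 0.25 SE, adjusted p = 9.82e-05), which is 0.331 times the adult level; the sums behind these values were 56, 49, 16 and 33 UMIs. In CA3 it went from 26.9 and 31.9 to 14.0 and 13.3 CPM (-1.13, adjusted p = 0.00120), from 31, 50, 49 and 43 UMIs, and the CA3 call was lost without adult replicate 2 (-1.42 to -0.95 over the alternatives). In DG, where Cnih3 is highest, aged sections held 178 and 215 CPM against 219 and 225, and the test did not pass. Over the 4 hippocampal areas the interaction passed for Cnih2 (adjusted p = 0.000686), Cnih3 (adjusted p = 0.00113) and Shisa6 (adjusted p = 0.00422), 3 of 10 members against 3.02% of all genes. The Cnih3 difference was higher in DG than in CA1-2 by 1.46 on the log2 scale, and those of Cnih2 and Shisa6 higher in matrix than in CA1-2 by 0.50 and 0.59.

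By area, 2 members passed higher and 1 lower in CA1-2 (5.59% and 5.24% of all genes), 3 and 2 in CA3 (8.72% and 8.03%), 1 and 0 in DG (5.35% and 5.19%) and 3 and 5 in matrix (13.6% and 12.9%). The 5 that fell in matrix were Cacng3 (-0.82, adjusted p = 7.28e-05), Cnih3 (-0.59), Gria3 (-0.52), Gria4 (-0.47) and Gria2 (-0.30). Over 16 alternative settings the Gria2 call held in 4 (-0.76 to -0.09) and was lost without either adult section, either P21 section or aged replicate 1. That of Gria4 held in 10 (-0.77 to -0.22) and was lost without either adult section or aged replicate 2, and that of Cnih3 was lost with DESeq2 and without adult replicate 1 (-1.12 to -0.46). The aged matrix covered fewer spots, 127 and 111 against 238 and 277 in adult sections. Its summed astrocyte markers were 9141 and 10162 CPM against 5948 and 6300.0, and its summed pan-neuronal markers 8069 and 6129 against 8166 and 8463, and microglia markers stood at 1124 and 1259.9 against 726 and 733. None of these markers was at 0. Each sum joins genes whose tests went both ways over the 13 zones. The part of these markers in the results was not tested.

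The interaction over the 6 regions passed for 8 of 10 members in aged against adult sections, where 45.5% of all genes did, with adjusted p from 1.80e-08 for Cacng8 to 0.000179 for Cnih3, whose call was lost without FT (adjusted p = 0.0991). Gria4 (adjusted p = 0.0838) and Cacng2 (adjusted p = 0.567) did not pass. In the clustering with 20 principal components, all 10 members passed. Relative to CTX, the HP difference was positive for Cnih2 (0.36), Shisa6 (0.35), Cacng8 (0.28), Gria1 (0.16) and Gria2 (0.12). It was negative for Cnih3 (-0.60), Cacng3 (-0.38) and Gria3 (-0.06). The FT difference relative to CTX was negative for all 8, from -1.86 for Cnih3 to -0.60 for Shisa6.

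In the fiber tracts nearly the whole family was lower in aged sections: 8 of 10 members fell and none rose, where 30.7% of all genes fell and 22.1% rose, with a median log2 fold change of -0.80 over the members and -0.06 over all genes. Cnih3 fell from 65.7 and 70.6 CPM to 18.9 and 19.0 (-1.81, adjusted p = 2.69e-09), and Cacng3 from 121 and 119.8 to 33.9 and 33.6 (-1.80, adjusted p = 2.34e-10). Gria2 fell from 359.7 and 326 to 114 and 119.5 CPM (-1.51, adjusted p = 7.42e-10) and Gria1 from 333 and 346 to 143 and 154 (-1.16, adjusted p = 3.44e-08). Gria3 (-0.87), Cacng8 (-0.72), Gria4 (-0.48) and Cnih2 (-0.40) fell less, and Shisa6 and Cacng2 did not pass. FT is rich in axons and glia, and summed pan-neuronal markers fell with these genes, from 6739 and 6547 CPM to 4407 and 4199.5. Excitatory neuron markers went from 3972 and 3481 to 1830 and 1839 CPM and inhibitory ones the other way, from 1731 and 1806 to 2640 and 2375, while microglia markers stood at 1513 and 1613 against 572 and 631 and astrocyte markers at 7038 and 7047 against 4687 and 4710.2. Among spots whose neighbours all lay in FT, the differences were larger for several members, -1.97 for Gria1, -1.92 for Gria2, -2.37 for Cacng3, -1.29 for Cacng8, -1.16 for Cnih2 and -0.77 for Shisa6, while Gria4 no longer passed (-0.25, adjusted p = 0.0506). Each of these marker sums joins genes whose tests went both ways over the 6 regions. Astrocyte genes passed higher in 15 tests and lower in 10 of 48, and microglia genes in 15 and 5 of 36. Pan-neuronal genes gave 10 and 21 of 60, excitatory 3 and 25 of 36, and inhibitory 13 and 16 of 42. By region, 13.8% to 22.1% of all genes rose and 15% to 30.7% fell. The part of these markers and of localization in the result was not tested.

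In TH, Cacng3 fell from 74.3 and 68.5 to 45.4 and 24.0 CPM (-1.01, adjusted p = 0.00432), Cacng8 from 105 and 99.1 to 47.3 and 60.4 (-0.90, adjusted p = 0.000193) and Gria2 from 289 and 259.7 to 167 and 172 (-0.67, adjusted p = 0.000304). Gria1 fell too (-0.54, adjusted p = 0.0117), a call lost without adult replicate 1 (-0.82 to -0.30 over the alternatives). Thus 4 members passed lower and 1, Cnih2, higher, against 18.4% and 18.3% of all genes, and the Cnih2 call (0.25) held in 6 of 16 settings, not without either adult section, either P21 section or aged replicate 2 nor with the replicate block. Gria4 stood at 164 and 167 CPM against 170.4 and 200.3. In HY, 4 of 10 fell and none rose (15.3% and 13.8%), namely Cnih3 (-0.64), Cacng3 (-0.62), Gria3 (-0.55) Cacng8 (-0.30), whose call held in 3 of 16 alternative settings. In STR, 4 fell, among them Cnih3 (-0.61) and Gria4 (-0.41), and Cnih2 rose (0.52, adjusted p = 0.000520), where 15.2% of all genes fell and 15.8% rose. The Cnih3 and Gria4 calls were lost without adult replicate 2 (-1.57 to -0.42 and -0.48 to -0.33), and the others, Gria3 (-0.25) and Shisa6 (-0.55), held in 8 and 9 of 16 settings, the first lost without any 1 of the adult or aged sections and the second without adult replicate 1, aged replicate 1 or either P21 section. Excitatory neuron markers summed to 2522 and 2446 CPM in the aged STR against 4677 and 4000.0 in adult sections, pan-neuronal markers to 5790 and 6056 against 7708 and 7425, and inhibitory ones to 2248 and 2404 against 1827 and 1901. As in FT, each sum joins genes whose tests went both ways over the 6 regions. In HY the excitatory sums were 1177 and 1245 against 2514 and 2128 CPM, and in TH 2915 and 2594 against 3392 and 3348. No marker of these lists was at 0 there, and their part in the results was not tested. Spots of the reticular thalamus, described in the closing section, may lie in STR, and their part was not tested either.

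In CTX the aged differences were smaller. Cnih2 rose from 103 and 111 to 167 and 148 CPM (0.54, adjusted p = 0.000291) and Shisa6 from 35.1 and 34.3 to 44.3 and 41.9 (0.29, adjusted p = 0.0136), and Gria4 fell from 161 and 176 to 139.8 and 133 CPM (-0.32, adjusted p = 0.00613); 20.5% of all genes rose and 22.3% fell. The Shisa6 call was lost without either adult section (0.25 to 0.39 over the alternatives) and that of Gria4 without adult replicate 2 (-0.39 to -0.27). The rise of Cnih2 held in the piriform and amygdalar area (0.66, adjusted p = 3.67e-07), the deep layers (0.51, adjusted p = 0.000264) and the upper layers (0.46, adjusted p = 0.0158), so that it passed in all 7 areas of HP and CTX. The call in the upper layers was lost in interior spots and without adult replicate 1 or aged replicate 1 (0.22 to 0.68). Cacng2 was higher in the upper layers (0.35, adjusted p = 0.0247) and the piriform and amygdalar area (0.33, adjusted p = 0.0334). The first of these calls was lost in 4 of 16 settings, without adult replicate 2 among them (0.20 to 0.53), and the second in 6, without adult replicate 2 or either aged section among them (0.22 to 0.47). Upper layers gave 2 members higher and 1 lower (16% and 14.4% of all genes), deep layers 1 and 2 (18.3% and 17.2%) and the piriform and amygdalar area 3 and 0 (19.1% and 16.4%). The 13 zones overlap, since HP and CTX hold their own areas. By zone, 5.35% to 22.1% of all genes rose in aged sections and 5.19% to 30.7% fell. Over all 13 zones, 23 tests rose and 35 fell in aged sections; without adult replicate 2 these were 14 and 22. Of the 58, 28 passed under each alternative run, and Cnih2 in HP, CA1-2, CA3, matrix, CTX and STR and Shisa6 in HP and matrix were among them.

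The deposited Moran's I, a measure of how alike neighbouring spots are, gave the localization of each gene over a whole section. It was higher in both aged sections than in each P21 and adult section for all 10 members, and for 55% of the 16205 genes listed in every section. Gria1 had the highest values among the members in adult and aged sections, 0.407 and 0.333 at P21, 0.410 and 0.397 in adult and 0.659 in each aged section. Cnih3 had 0.273 and 0.214, 0.239 and 0.230, and 0.525 and 0.572. Gria4 and Cacng2 had the lowest values among the members. Those of Gria4 were 0.10 and 0.055, 0.10 and 0.129, and 0.20 and 0.283. Whether the UMI counts of these genes take part in the low values was not tested. The median of the 10 was 0.244 at P21, 0.230 in adult and 0.505 in aged sections. The median over all genes was higher in aged sections too, at 0.0325 to 0.0425 against 0.0127 to 0.0206 in P21 and adult sections.

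**Figure D5:**
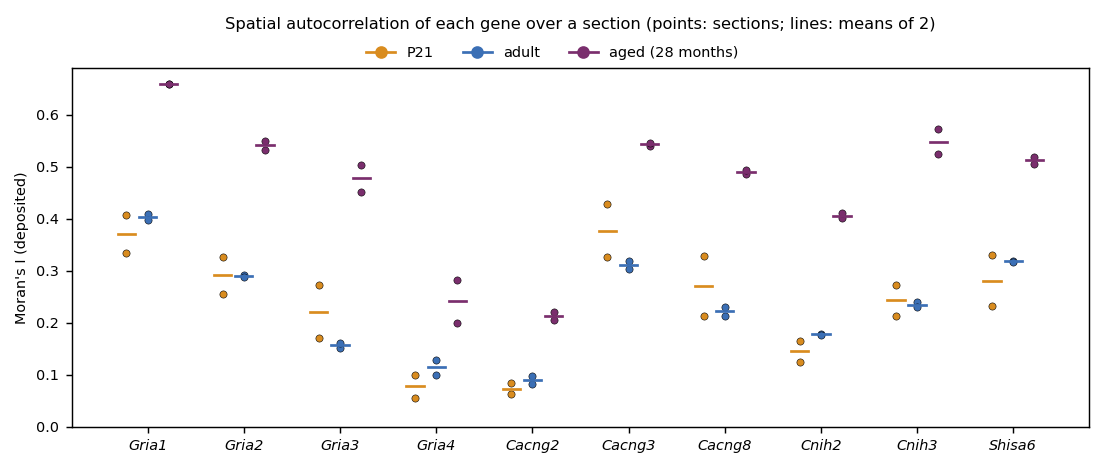
Moran's I of each member over a section, from the deposited tables (y axis, no unit; 0 is no spatial pattern); points are the 2 sections of P21 (orange), adult (blue) and aged (purple) mice, and lines are their means. The aged points lie above all others for each of the 10 members.

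Over whole sections, whose share of each zone varied, 4 members were lower at P21 (Gria1, Gria2, Gria3 and Cacng8, with log2 fold changes of -0.34 to -0.25; 17.1% of all genes lower, 13.3% higher) and none passed higher. The P21 count was 0 without P21 replicate 2 and 2 without P21 replicate 1 or adult replicate 2. In aged sections Cnih2 rose (0.36, adjusted p = 0.00179) and 5 fell, Gria4 (-0.37), Cacng3 (-0.24), Gria2 (-0.24), Gria3 (-0.19) and Cnih3 (-0.19), where 17.3% of all genes rose and 37.3% fell. The median of all genes was itself -0.10 there, and with plain library sizes in place of TMM factors, 1 member fell. Without either adult section 3 fell.

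Other genes of the pathway were tested in the same 13 zones, in which 1.97% to 10.9% of all genes passed higher and 0.86% to 14.2% lower at P21, and 5.35% to 22.1% rose and 5.19% to 30.7% fell in aged sections. Of 20 further auxiliary and associated genes, 46 tests of 251 were higher at P21 and 27 lower, and in aged sections 27 of 244 rose and 60 fell. For the genes named next, a zone is counted where the gene passed and also differed by more than 1.5-fold. By zone, 1.67% to 6.63% of all genes did so in the higher and 0.604% to 4.1% in the lower direction at P21. In aged sections, 3.78% to 10.3% did in the higher and 3.16% to 13.4% in the lower direction. At P21 the TARP gamma-4 gene Cacng4 was more than 1.5-fold higher in 11 of 13 zones (0.60 to 1.67 on the log2 scale), Shisa8 in 9 of 10 (1.16 to 3.40) and Cacng5 in 7 of 13 (0.66 to 1.89). In the P21 DG, the auxiliary genes Frrs1l (-0.61), whose product assembles the receptor, Gsg1l (-1.11) and Shisa9 (-0.92), also known as CKAMP44, were lower. In aged sections Porcn was higher in 6 zones (0.59 to 0.74) and Cacng5 in 2, and Olfm2 lower in 6 (-1.05 to -0.74), Olfm1 in 4 and Nrn1 in 3. Among 25 scaffold and trafficking genes, 19 of 325 tests were higher and 24 lower at P21, and 78 rose and 60 fell in aged sections. Nptx2, a pentraxin that clusters AMPA receptors, was higher at P21 in 10 zones (1.09 to 2.35) and lower in aged sections in 8 (-2.0 to -0.78). Arc, an activity-induced gene whose product removes receptors from the surface, was lower at P21 in 5 zones (-1.55 to -0.95) and higher in aged sections in 10 (1.0 to 2.58). Of 9 kainate and delta receptor genes, 10 of 117 tests were higher and 1 lower at P21, and 8 rose and 37 fell in aged sections, with Grik1 lower in 8 zones (-1.19 to -0.70).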

How the data were processed

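Per the labels and the study's methods, sections were hybridized with whole-transcriptome probe pairs. The authors deposited raw UMI counts per spot and gene, aligned to mm10 with Space Ranger. Its version was 2.0.0 (P21 and adult) or 3.1.1 (aged) by the methods and the headers of the counts, whereas the labels name another. The authors also deposited, as a score, Moran's I per gene. The p-values beside it were not used. The members and lists were chosen with earlier results of these data known.

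Each spot kept held at least 250 genes and 500 UMIs, which left out 1 to 4 per section. Log-normalized values of 3000 variable genes, scaled within each section, were reduced to 10 principal components, and Leiden clustering (leidenalg 0.10.2, resolution 0.3) gave 12 clusters, each named from marker panels; 39 cortical spots, all in aged replicate 2, kept no layer name. Of the spots, 90.4% kept their zone with 20 components. The ventricular cluster, which mixed choroid and habenula markers, and the vessel cluster were left out of the tests. Spot barcodes mark positions on a slide: v1 sections shared 2612 to 2997 of them, the aged sections shared 3364, and no v1 section shared any with an aged one.

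UMIs were summed per section and zone and tested with edgeR 4.0.16 (R 4.3.3; glmQLFit and glmQLFTest, TMM factors, age as the term, all 6 sections in a fit) on genes detected in over 10% of the zone's spots at either age and in 10% of all spots, with Benjamini-Hochberg adjustment over all genes tested. A gene passed at an adjusted p under 0.05; it was called where its fold also exceeded 1.5. The Wilcoxon test over spots that the methods name was replaced, since spots of a section are not replicates. The interaction had the section as a block. The lowest sum of a member was 44 UMIs in a region and 16 in a hippocampal area. Simulated counts of P21 against adult held changes in genes drawn at random from those tested. Of 1.5-fold changes, 89% (CTX, 10916 genes), 79% (FT, 11179 genes) and 17% (CA1-2, 9691 genes) passed, and 100%, 98% and 55% of 2-fold changes. Every member was named; of the other lists, up to 3 genes per direction and comparison that were called in the most zones. One gene of similar pattern is not reported here. Alternatives, among them DESeq2 1.42.0, are given in the closing section.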

Additional observations from a re-analysis of the deposited data

Results flagged for a closer look

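These genes were picked out because the change with age differed between zones in the interaction test of edgeR, with adjusted p over all genes. For P21 against adult over 6 regions, these were Gria3 (adjusted p = 0.0263) and Shisa6 (adjusted p = 0.0314), and over the areas within HP Cacng3 (adjusted p = 0.0263) and Shisa6 (adjusted p = 0.0306). Of all genes, 11.7% passed at P21 over regions and 5.44% over the areas within HP. The P21 calls over regions were lost without either P21 or either adult section. For aged against adult over 6 regions, they were Cacng8 (adjusted p = 1.80e-08), Gria2 (adjusted p = 5.55e-08), Cnih2 (adjusted p = 9.48e-07), Gria3 (adjusted p = 9.55e-07), Gria1 (adjusted p = 1.56e-06), Cacng3 (adjusted p = 2.92e-06), Shisa6 (adjusted p = 1.82e-05) and Cnih3 (adjusted p = 0.000179). Within HP they were Cnih2 (adjusted p = 0.000686), Cnih3 (adjusted p = 0.00113) and Shisa6 (adjusted p = 0.00422), where 3.02% of all genes passed. Of all genes, 45.5% passed the test of aged against adult over regions, so that 8 of 10 members stand against a high background; whether slide version, which goes with the aged sections, takes part in these differences between zones was not tested.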

How the results depend on the processing

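At P21, the count of member tests that passed over 13 zones (8 higher, 19 lower) was 29 lower in a fit of those ages alone, and leaving out 1 section gave 0 to 10 higher and 2 to 33 lower. Over whole sections the 0 higher became 1 with DESeq2, 2 in a fit of those ages alone and 1 with plain library sizes, and leaving out 1 section gave 0 to 2 higher and 0 to 5 lower. In aged sections, 23 higher and 35 lower became 14 to 23 and 22 to 38 without 1 section; over whole sections the 5 lower became 1 with plain library sizes and 3 to 5 without 1 section. The interaction for P21 passed for 2 members, 1 without FT, 1 with 20 components and 0 in interior spots, and the count changed when 1 section was left out. For aged it passed for 8, for 7 without FT, 9 with plain library sizes, 8 in interior spots and 10 with 20 components. Over the hippocampal areas it passed for 3 in aged sections. Recomputed Moran's I averaged 0.261 in adult and 0.542 in aged sections, against 0.228 and 0.504 deposited. The log2 ratio of Cacng2 to Cacng8 in FT minus CTX turned from 0.56 to -0.045 with 20 components; the cause of these changes was not tested. No member test that passed changed direction, and the counts of pairs in a fixed order stayed within 1.5 times their value under the alternatives run.

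Replicate numbers do not pair the sections: deviations of same-numbered sections correlated at 0.02 (P21 and adult), -0.04 (P21 and aged) and -0.17 (adult and aged). With the replicate block, P21 gave 7 higher and 18 lower by zone and 0 and 4 over whole sections, and aged 22 and 32 by zone and 1 and 5 over whole sections. A crossed pairing of the aged sections, chosen after seeing the data, gave 27 and 39 by zone and 1 and 5 over whole sections. Interior spots were too few in CA1-2, CA3 and DG to be tested. With 2 sections per age and 16 UMIs at the least in a sum, small changes in CA1-2 can be missed at this depth. There 17% of simulated 1.5-fold changes passed, in genes drawn at random, and the share for the members was not simulated.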

Other observations

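A cluster with the markers of the reticular thalamus, the sheet of inhibitory neurons around the thalamus, appeared with 20 principal components and held 40 to 59 spots per section. In the main clustering such spots had no cluster of their own and lay within other zones. STR held 141 to 248 spots per section there and 107 to 191 with 20 components, so its levels and calls may include reticular spots. Their part in the STR results was not tested. The levels of the reticular cluster are described without a test. Gria1 was 188 and 131 CPM there at P21 and 257 and 256 in adult sections, but 36.8 and 23.0 in aged sections. Cacng3 showed a like gap, with 80.6 and 82.8 CPM, 92.0 and 91.7, and 13.3 and 16.4. Gria4, by contrast, had 168 and 191 CPM at P21, 183 and 215 in adult and 238 and 229.7 in aged sections, and Cacng2 had 88.9 and 97.5, 116 and 84.4, and 142 and 129.6 CPM. In each section the reticular cluster held more Cacng2 and less Gria1 than the TH cluster, and in all but P21 replicate 1 more Gria4. Cacng3 was lower than in TH only in aged sections. In TH of the same clustering, Gria1 stood at 268 and 258 CPM at P21, 342 and 308 in adult and 179.8 and 261 in aged sections. Gria4 stood there at 171 and 162 CPM, 168 and 197, and 162 and 166.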
